A study of Homo sapiens with 6 samples.

Results

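LY6D and 9 other genes of the LY6/uPAR family were followed in AGS, a cell line from a human gastric adenocarcinoma, after knockdown of C1GALT1. The 10 genes were LY6D, PSCA, LY6E, LY6K, LY6H, LYPD1, LYPD3, LYPD6, PLAUR and CD59, of 22439 genes with a named probe on the array, and they were measured by 14 probes. They were selected on their signals in this same comparison, so every value of theirs is given as a description, with its standard error and no test. One group of cells received nontargeting siRNA (si-Control) and the other received si-C1GALT1-3, a single siRNA against C1GALT1, and RNA was taken 48 h after transfection. There were 3 samples in each group, each on a separate 1-colour Agilent array. Nothing in the labels says whether the 3 samples of a group were separate cultures, so the spread between them may be technical. The cell line is a single line, and the knockdown was transient, with no second siRNA among these arrays.

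Proteins of the LY6/uPAR family share a small, disulfide-rich domain known as the 3-finger fold. Most are held at the outer face of the plasma membrane by a glycosylphosphatidylinositol (GPI) anchor, and a few are secreted. PLAUR is the receptor of urokinase, CD59 blocks the last step of complement attack, and PSCA, a cell surface antigen first described in prostate, is also made by the epithelium of the normal stomach. LY6D is a surface marker of keratinocytes and of early B cells. C1GALT1 is the galactosyltransferase that extends the first sugar of mucin-type O-glycans.

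The arrays had 62976 spots, of which between 66.2% and 72.7% of the gene spots were well above background and none was saturated. On si-Control replicate 2, a block of spots with low signal covered 15.9% of the gene spots. Inside it 36.5% of spots were well above background, against 71.9% outside. Its spots were set to missing on that array, which left LY6D and 1 of the 3 LYPD1 probes with 2 si-Control arrays instead of 3. Same-numbered arrays shared a slide on which si-Control always took the same place, and treatment and place cannot be told apart. The targeted gene C1GALT1 had normalized log2 signals of 12.22, 13.03 and 12.62 in si-Control and 11.76, 11.98 and 11.13 in si-C1GALT1-3, a difference of -1.00 ± 0.31 (SE, 3 arrays per group, limma adjusted p = 0.265). Its groups did not overlap, although the probe did not pass the threshold used here, p under 0.01 with at least a 2-fold difference. All 6 epithelial marker genes were well above background on every array kept, with mean log2 signals between 13.75 and 17.62 in si-Control. Of the markers of other lineages, 4 of 6 leukocyte, 3 of 4 fibroblast and 2 of 3 endothelial genes were also well above background on every array kept, PTPRC and CD79A with means of 13.97 and 12.78 in si-Control among them, so on this array a signal above background does not by itself mark a cell type. None of the 19 marker genes passed the threshold in either direction. In whole-culture RNA, fewer expressing cells and less RNA per cell cannot be told apart.

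Promoter windows of RefSeq (GRCh38.p14), each reaching from 250 bases before to 50 bases after a transcription start, were given for 5 of the 10 genes, LYPD1, LYPD3, LYPD6, PLAUR and CD59, with 10 windows in all. The LYPD1 and LYPD3 windows are shown because the LYPD1 probes were lower and the LYPD3 probes higher after knockdown, as described further on. Capitals mark matches, on either strand, to 5 motifs: the interferon response core GAAANNGAA, the GAS motif TTCNNNGAA, the AP-1 motif TGANTCA, the GC box GGGCGG and the TATA box TATAAA. Each sequence reads from 5′ to 3′ along the transcript's strand.
LYPD1, chr2:132671477-132671776, - strand: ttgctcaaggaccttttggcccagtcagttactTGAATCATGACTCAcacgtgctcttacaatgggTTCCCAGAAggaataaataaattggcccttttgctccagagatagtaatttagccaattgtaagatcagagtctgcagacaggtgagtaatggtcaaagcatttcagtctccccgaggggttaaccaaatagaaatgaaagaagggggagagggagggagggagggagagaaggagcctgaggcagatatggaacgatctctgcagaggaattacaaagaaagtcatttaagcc
LYPD1, chr2:132670156-132670455, - strand: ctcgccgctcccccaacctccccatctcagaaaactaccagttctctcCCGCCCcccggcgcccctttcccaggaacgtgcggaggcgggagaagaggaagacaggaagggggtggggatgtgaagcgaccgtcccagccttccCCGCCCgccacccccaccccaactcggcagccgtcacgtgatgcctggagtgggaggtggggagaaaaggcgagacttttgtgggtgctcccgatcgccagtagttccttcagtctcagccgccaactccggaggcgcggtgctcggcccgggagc
LYPD3, chr19:43465559-43465858, - strand: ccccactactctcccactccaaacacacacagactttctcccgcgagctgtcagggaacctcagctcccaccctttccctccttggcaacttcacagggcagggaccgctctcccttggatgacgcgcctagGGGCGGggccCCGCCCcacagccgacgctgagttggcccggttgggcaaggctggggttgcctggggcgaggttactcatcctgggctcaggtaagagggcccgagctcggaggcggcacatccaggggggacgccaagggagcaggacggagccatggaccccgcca
The first LYPD1 window held 2 AP-1 matches side by side, without overlap, and 1 GAS match. The second LYPD1 window and the LYPD3 window held 2 GC boxes each. An AP-1 match was also in the window of PLAUR and in a window of CD59, so that 3 of the 10 windows held one, against 7.71% of 35116 RefSeq promoter windows of 300 bases. The GAS motif was in 3 of the 10 windows, all of them windows of LYPD1 or CD59, and in 7.66% of all windows. The GC box was in 6 of 10 and in 44.95% of all. The interferon response core and the TATA box were in none of the 10 windows, against 8.11% and 11.53% of all windows. These are letter matches, and nothing on the arrays measured binding at them.

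LY6D had the largest difference of the 10 genes over all arrays kept. Without si-C1GALT1-3 array 3 the order turned, with PSCA at 3.28 and LY6D at 2.99. In si-Control the normalized log2 signal of LY6D was 7.65 on array 1 and 8.22 on array 3, whereas the 3 si-C1GALT1-3 arrays gave 10.99, 10.90 and 11.57. The highest si-Control array thus lay more than 2 log2 units under the lowest si-C1GALT1-3 array. The group means were 7.94 ± 0.40 (SD, n = 2) and 11.15 ± 0.36 (SD, n = 3), and the fitted difference was 3.22 ± 0.31 (SE) on the log2 scale, or 9.29-fold. Within slides 1 and 3, where both arrays had a value, the differences were 3.33 and 3.34. The masked spot on si-Control replicate 2 lay in the low-signal block. With it kept, its value was 6.40 and the difference became 3.73 ± 0.48, so the direction did not depend on the mask while the size did.

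PSCA was higher after knockdown as well. Its log2 signals were 7.86, 8.30 and 7.68 in si-Control and 11.49, 11.00 and 9.78 in si-C1GALT1-3, a difference of 2.81 ± 0.47 (SE, 3 arrays per group), or 7.01-fold. The groups did not overlap, and the third si-C1GALT1-3 array was well under the other two. Within slides 1, 2 and 3 the PSCA differences were 3.63, 2.70 and 2.10. The PSCA spot lay outside the low-signal block, so all 6 arrays entered its value.

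**Figure D1:**
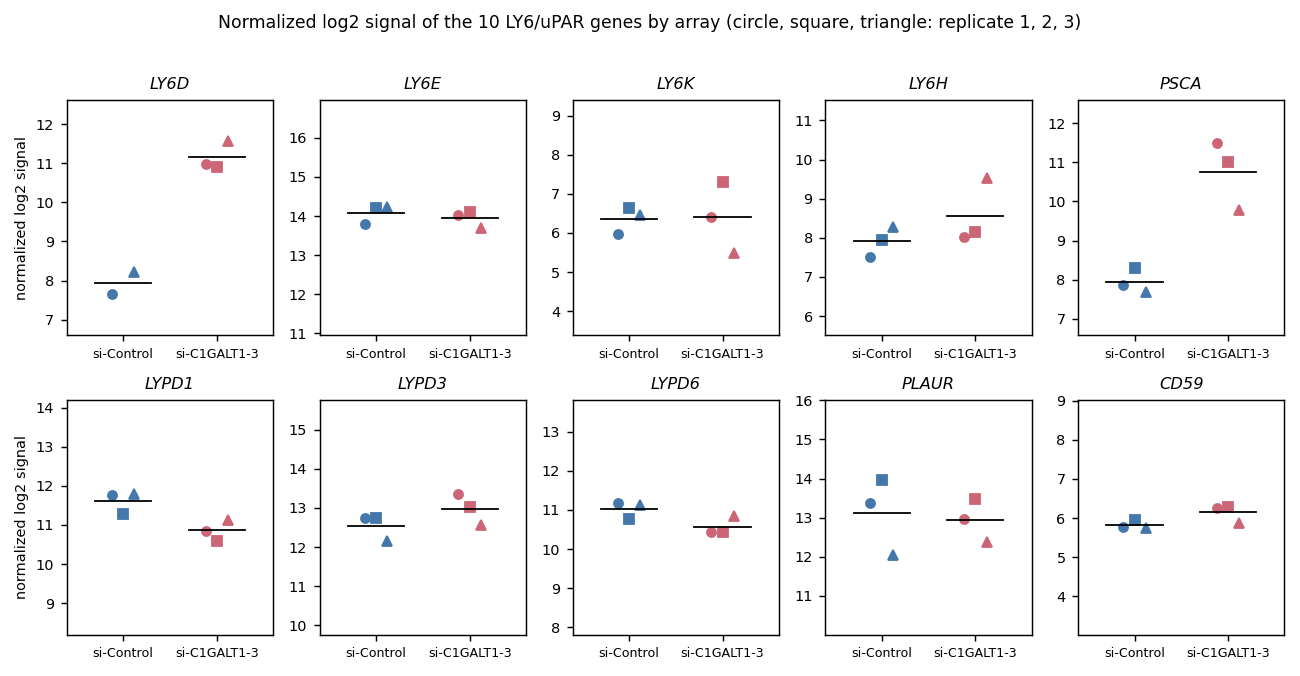
Normalized log2 signal (vertical axes, each spanning the same number of log2 units) of the 10 genes on the probe with the highest mean signal, with si-Control arrays in blue, si-C1GALT1-3 arrays in red, marker shapes for replicates 1, 2 and 3, and a bar at each group mean. LY6D and PSCA lie 3.22 and 2.81 higher after knockdown with groups apart, LYPD1 lies 0.75 lower with groups apart, and the other 7 genes overlap between groups.

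Among the 10 genes, taking for each the probe with the highest mean signal, 6 had a higher and 4 a lower mean after knockdown. By the p and fold threshold given above, counted here as a description and not as a test, 2 genes, LY6D and PSCA, lay past it in the higher direction and none in the lower. Counting all 14 probes, the same 2 lay past it higher, and 2 of the 3 LYPD1 probes, A_32_P101031 and A_23_P419696, lower, the first of them at 2.01-fold and under 2-fold in several alternatives. The second, A_23_P419696, was also under 2-fold, at -0.91 on the log2 scale, with normexp background correction. Over all 58195 probes tested, 1.65% passed in the higher and 0.991% in the lower direction. The groups were apart, without overlap, for 2 genes in the higher and 1 in the lower direction and overlapped for 7, while over all probes 11.0% were apart in the higher and 10.4% in the lower direction. Since the genes were selected on this comparison, these shares are printed for scale alone. The median difference of the 10 was 0.18, against 0.019 over 22437 genes at 1 probe each, and 6 of the 10 genes differed by less than 0.5 on the log2 scale.

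The other LY6 genes of chromosome 8 showed smaller differences. LY6E, an interferon-inducible surface protein, had log2 signals of 13.80, 14.20 and 14.23 in si-Control and 14.03, 14.11 and 13.69 in si-C1GALT1-3, a difference of -0.13 ± 0.20. LY6H, known mainly from brain, had 7.50, 7.95 and 8.26 in si-Control and 8.02, 8.14 and 9.53 in si-C1GALT1-3, a difference of 0.66 ± 0.46. Its groups overlapped, although it was higher within slides 1, 2 and 3 by 0.52, 0.18 and 1.27. The third si-C1GALT1-3 array alone lay over 9, and with 1 array left out at a time the difference ranged from 0.17 to 0.93. LY6K, a testis and tumor antigen, had 5.97, 6.64 and 6.46 against 6.41, 7.30 and 5.49, a difference of 0.04 ± 0.48, and its spot on si-C1GALT1-3 array 3 was not well above background. The LY6K arrays spread more widely within the knockdown group than the groups differed from each other.

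LYPD1, also known as Lynx2, a GPI-anchored protein that binds nicotinic acetylcholine receptors, was the gene whose probes were lower throughout. Its leading probe, A_33_P3284129, had log2 signals of 11.76, 11.29 and 11.79 in si-Control and 10.85, 10.59 and 11.14 in si-C1GALT1-3, a difference of -0.75 ± 0.22, or 1.68-fold lower. Probe A_23_P419696 had 7.28, 7.73 and 8.35 against 6.57, 6.50 and 6.28, a difference of -1.34 ± 0.29. Both probes separated the groups and were lower within each of the 3 slides, by 0.66 to 2.07. Probe A_32_P101031 lay in the low-signal block. The 2 si-Control arrays left, 1 and 3, gave 10.44 and 11.05, and the si-C1GALT1-3 arrays gave 9.79, 9.71 and 9.72, a difference of -1.01 ± 0.23, and the groups were apart on these 5 arrays. With the masked spot kept, its value of 4.92 on si-Control replicate 2 turned the difference to 0.90 ± 1.64. For LYPD1, the direction on that 1 probe therefore depended on the mask, while that of the other 2 probes did not.

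LYPD3, also called C4.4A, an adhesion-related surface protein of stratified epithelia that binds AGR2, had higher means on both of its probes, with groups that overlapped. Probe A_33_P3306264 had 12.74, 12.73 and 12.15 in si-Control and 13.36, 13.02 and 12.56 in si-C1GALT1-3, a difference of 0.44 ± 0.28. Probe A_24_P48495 had 9.90, 10.13 and 9.18 against 11.23, 10.91 and 9.67, a difference of 0.87 ± 0.48. The third array was the lowest in both groups on both probes, and the groups overlapped. Within slides 1, 2 and 3 every LYPD3 difference was above 0, namely 0.62, 0.29 and 0.40 on the first probe and 1.33, 0.78 and 0.49 on the second. With the slide as a replicate block the differences were 0.44 ± 0.13 and 0.87 ± 0.21. With 1 array left out at a time they ranged from 0.24 to 0.65 and from 0.56 to 1.32.

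LYPD6, a GPI-anchored protein that modulates Wnt signaling and nicotinic receptors, gave probes whose fitted differences over all arrays were opposite in direction. Probe A_33_P3359047 had 11.18, 10.76 and 11.12 in si-Control and 10.45, 10.43 and 10.83 in si-C1GALT1-3, a difference of -0.45 ± 0.19 with overlapping groups, and was lower within slides 1, 2 and 3 by 0.73, 0.32 and 0.29. Probe A_24_P37253 had 3.54, 6.95 and 6.83 against 6.68, 7.28 and 6.30, a difference of 0.98 ± 0.97. The value of 3.54 came from a spot that was not well above background, and the other 5 arrays of that probe lay between 6.30 and 7.28. The fitted differences of the LYPD6 probes thus differed in sign, and the second probe also differed in sign between slides. Without si-Control array 1, which held the dim spot, both probes were lower, at -0.37 and -0.14.

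PLAUR, the urokinase receptor, differed more between slides than between groups. Its log2 signals were 13.36, 13.96 and 12.06 in si-Control and 12.96, 13.48 and 12.37 in si-C1GALT1-3, a difference of -0.19 ± 0.55. Arrays 3 were the lowest of both groups, and the within-slide differences of -0.41, -0.48 and 0.31 did not share a sign. CD59 had a single dim probe, with 5.76, 5.95 and 5.75 in si-Control and 6.26, 6.28 and 5.88 in si-C1GALT1-3, a difference of 0.32 ± 0.17. Its groups overlapped through 1 array of each, the within-slide differences were 0.50, 0.34 and 0.13, and its spot on si-Control array 3 was not well above background. With the low-signal block kept the CD59 difference was 0.12, and with normexp background correction it was 0.10. Other CD59 transcripts may not have been read by this probe, which was matched to the gene by a RefSeq accession alone.

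**Figure D2:**
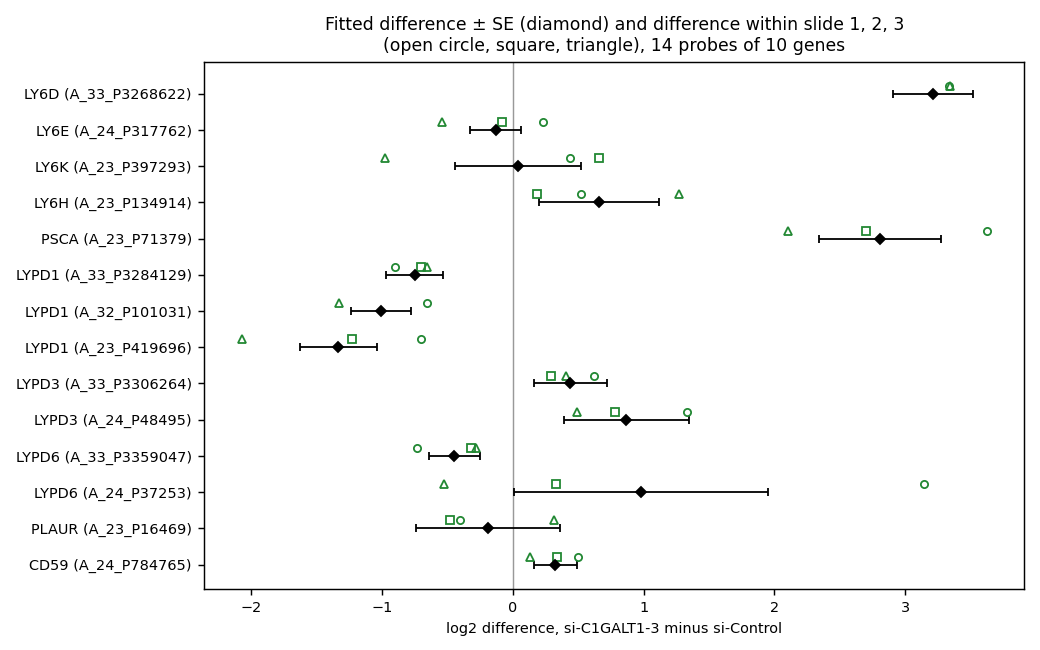
Log2 difference between si-C1GALT1-3 and si-Control (horizontal axis) for the 14 probes of the 10 genes, with diamonds and bars for the fitted difference and its SE over all arrays kept, and open circle, square and triangle for the difference within slides 1, 2 and 3. The LY6D and PSCA points lie at 2.10 or more, all LYPD1 points lie under 0, and the fitted differences of the 2 LYPD6 probes lie on opposite sides of 0.

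LY6D, PSCA, LY6E, LY6K and LY6H lie on chromosome 8, and in RefSeq gene order LY6D, PSCA and the further family gene LYPD2 stand close together. Of the 10 measured genes on each side of LY6D, 9 belonged to the family and 11 did not. LYPD2, a GPI-anchored family protein that was not among the 10 genes and lies 2 measured genes from LY6D, had log2 signals of 5.64 on array 1 and 5.94 on array 3 of si-Control. The si-C1GALT1-3 arrays gave 9.14, 8.69 and 9.01. The difference was 3.16 ± 0.22, or 8.93-fold (limma adjusted p = 0.0499, the lowest reached by any probe and shared with others). The LYPD2 groups were apart by more than 2 log2 units, although its spot too lay in the low-signal block and so rested on 2 si-Control arrays. With that spot kept the difference was 2.93, and with normexp background correction it was 2.15, and LYPD2 passed in both. SLURP2, between LYPD2 and LY6D, had a difference of 0.01 ± 0.22 and SLURP1, on the other side of LYPD2, 0.22 ± 0.20, both secreted family proteins. GML, the next gene beyond LY6D, had -0.83 ± 0.25 (limma adjusted p = 0.253) and did not pass. The 9 family neighbors ranged from -0.83 to 3.16 with a median of 0.04. PSCA and LYPD2 stood apart from the other 7 in size. The 11 other neighbors, which include CYP11B1 and CYP11B2 of steroid synthesis and the neuronal gene ARC, ranged from -0.42 to 0.50 with a median of 0.15, and none passed. No test of the stretch as a whole was made.

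**Figure D3:**
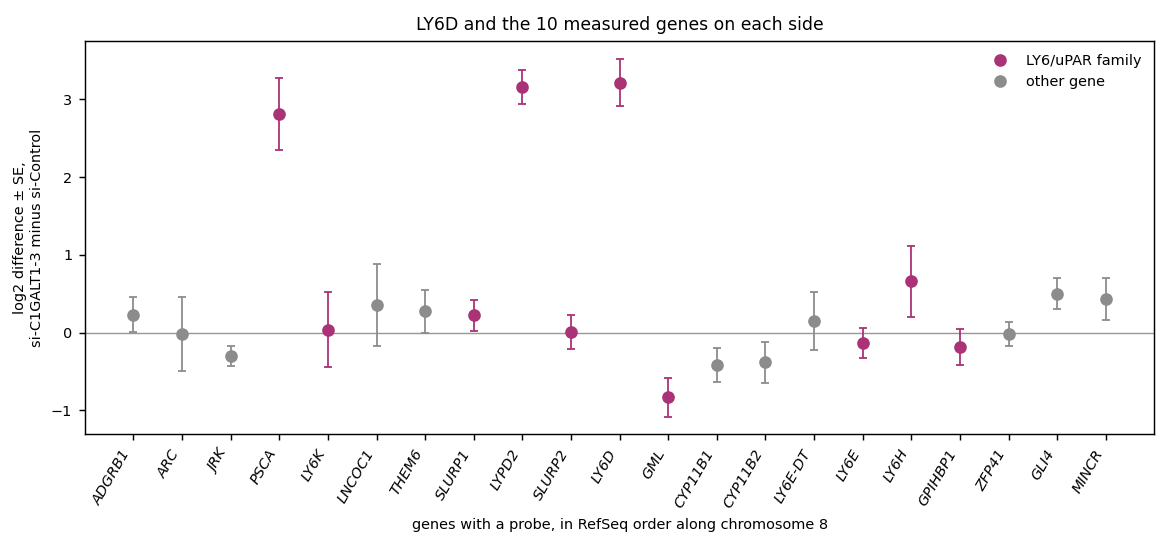
Log2 difference ± SE between si-C1GALT1-3 and si-Control (vertical axis) for LY6D and the 10 measured genes on each side of it, in RefSeq order (horizontal axis, not to distance), with family genes in purple and other genes in grey. PSCA, LYPD2 and LY6D lie between 2.81 and 3.22, while the genes between and around them lie between -0.83 and 0.66.

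The family genes outside the 10 were taken as a list of 25, of which 22 had a named probe. Of these, 1 gene, LYPD2, passed in the higher direction and none in the lower, against 1.65% and 0.991% of all probes. The list's median was -0.04, against 0.019 over 22437 genes at 1 probe each. In the list, 10 genes had a higher and 12 a lower mean. LY6G6C, of the major histocompatibility region on another chromosome, had 0.89 ± 0.34 (limma adjusted p = 0.346) and did not pass. The LYPD5, LYPD8 and PATE1 probes were not well above background on any array kept.

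The genes whose profile was most like that of LY6D were found by the root mean square difference between mean-centered log2 values. It was taken over the 5 arrays on which LY6D had a value, among 16935 genes well above background on those arrays. The closest was LYPD2, with 0.24 log2 units, followed by APOD, a lipid-binding lipocalin, with 0.26, PLEKHA1, a phosphoinositide-binding adaptor, with 0.30, IFI35, an interferon-induced gene, with 0.30, and PRF1, which encodes perforin, with 0.34. Their differences between groups were 2.74 ± 0.31 for APOD, 2.75 ± 0.21 for PLEKHA1, 2.60 ± 0.27 for IFI35 and 3.05 ± 0.46 for PRF1. PSCA was the 80th closest, with 0.82, and array 3 was the lowest of its si-C1GALT1-3 group where it was the highest for LY6D. Over 5 arrays in 2 groups, genes with a group difference of similar size come out close by this measure.

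The genes that work with these proteins were taken as further lists. For scale, 1.65% of all 58195 probes passed in the higher and 0.991% in the lower direction. The median over 22437 genes at 1 probe each was 0.019. Of 14 genes of the urokinase system around PLAUR, none passed in the higher and 1 in the lower direction, with a list median of -0.28. That gene was SERPINB2, an inhibitor of urokinase, with 11.44 on array 1 and 11.25 on array 3 of si-Control against 8.13, 7.93 and 9.53 in si-C1GALT1-3, a difference of -2.82 ± 0.54 (limma adjusted p = 0.159). Its spot lay in the low-signal block, and with the slide as a replicate block the difference of -2.52 no longer passed. PLAT, another plasminogen activator, passed in its place in the lower direction in that fit. The SERPINB2 call was also lost without si-C1GALT1-3 array 1 or 2, with differences of -2.62 and -2.52, and with the masked spot kept, at -1.97. It was lost as well without si-Control array 1 or 3, at -2.74 and -2.88, which leaves a single si-Control array for this probe. Urokinase itself, PLAU, had 0.05 ± 0.25. Of 18 complement regulators and terminal components around CD59, none passed, with a median of -0.29. The count was 1 with the low-signal block kept, through CFI in the higher direction, 2 with 75th percentile scaling, through CFI and, in the lower direction, CD55, and 3 when any probe of a gene was counted.

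Of 32 genes that build, attach and remodel the GPI anchor, 1 passed in the higher direction and none in the lower. Among all probes the shares were 1.65% and 0.991%. In mean, 25 genes were higher and 7 lower, with a median of 0.17, against 0.019 over 22437 genes. The gene that passed was PIGM, the mannosyltransferase that adds the first mannose of the anchor, with log2 signals of 6.76, 6.44 and 6.12 in si-Control and 8.57, 8.88 and 9.24 in si-C1GALT1-3. The difference was 2.45 ± 0.25 (limma adjusted p = 0.0666), and it was 1.81 or more within each slide. With normexp background correction the PIGM difference was 1.69, which still passed. None of the 16 nicotinic acetylcholine receptor subunits passed, with a median of -0.07, and none of the 4 measured LYPD3 partners did, AGR2 having 0.22 ± 0.36.

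**Figure D4:**
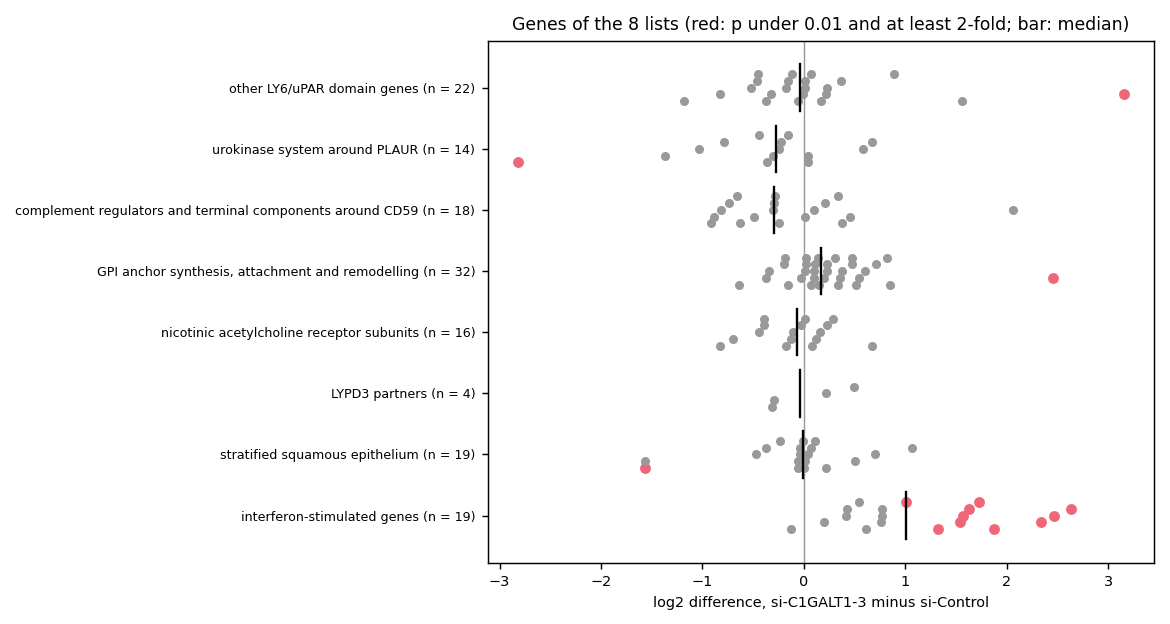
Log2 difference between si-C1GALT1-3 and si-Control (horizontal axis) for every measured gene of the 8 lists, with genes that passed p under 0.01 and 2-fold in red, other genes in grey and a black bar at the list's median. The interferon-stimulated genes have 10 red points, all higher, and the other lists have at most 1 each.

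LY6D is a marker of stratified epithelium and LY6E responds to interferon, so genes of these programs were listed as well. These lists were chosen with earlier results of these data known, so their counts are a description. Of 19 measured genes of stratified squamous epithelium, none passed in the higher and 1 in the lower direction, with a median of -0.0081. Among all probes, 1.65% passed higher and 0.991% lower. The keratin gene KRT14 had 0.04 ± 0.41 and the cornified envelope gene IVL had 0.00 ± 0.16. S100A7, or psoriasin, was the gene that passed, with 8.41, 8.10 and 7.45 in si-Control and 5.85, 6.82 and 6.59 in si-C1GALT1-3, a difference of -1.57 ± 0.36 (limma adjusted p = 0.175). With the slide as a replicate block, 0 genes of the list passed, the S100A7 difference being -1.57 ± 0.40. S100A7 was -0.84 with normexp and did not pass, and its call was also lost without si-Control array 1 or 2 or si-C1GALT1-3 array 1 or 3. The count of the list was 0 without the first 3 of these arrays, 1 without si-C1GALT1-3 array 3, through SPRR2A, and 2 without si-C1GALT1-3 array 2, through S100A7 and KRT6B.

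Of 19 measured interferon-stimulated genes, 10 passed in the higher direction and none in the lower, against 1.65% and 0.991% of all probes. In mean, 18 of 19 were higher, with a median of 1.01, against 0.019 over 22437 genes. On its leading probe the OAS2 gene, of the antiviral oligoadenylate synthetases, rose by 2.63 ± 0.23. OAS2 probes A_23_P204087 and A_33_P3225522 rose by 2.88 ± 0.26 and 1.69 ± 0.27. BST2, or tetherin, which is held to the membrane by a GPI anchor, had 10.11, 10.33 and 9.77 in si-Control and 12.68, 12.65 and 12.28 in si-C1GALT1-3. It rose by 2.47 ± 0.21, and IFI44L rose by 2.34 ± 0.20. Each of the 3 genes had a limma adjusted p of 0.0499 on its leading probe, the lowest reached by any probe. EPSTI1 and IFIT3 lost their calls in several alternatives, the count being 8 to 10 without a single array and 9 with the slide as a replicate block. LY6E, itself known to respond to interferon, had -0.13 ± 0.20 on its probe. Whether the interferon-stimulated genes bear on LY6D, LYPD2 or PSCA was not tested.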

How the data were processed

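AGS cells were profiled on 6 one-colour Agilent arrays, 3 per group. The authors deposited Feature Extraction (version 10.5.1.1) output, in which values are spot intensity, corrected for background and not normalized between arrays. A deposited series table gives those spots after background subtraction only. The log2 processed signals were quantile normalized over the 6 arrays. Control spots were left out, and outlier spots (100 to 424 per array) and, on si-Control replicate 2, spots in rows 113 to 288 and columns 59 to 115 were set to missing. Spots of a probe were averaged and groups compared with limma 3.58.1 (lmFit, eBayes) in R 4.3.3, with Benjamini-Hochberg adjustment over all 58195 probes tested. A probe passed at p under 0.01 and at least 2-fold, without adjustment. Over all probes, 961 passed higher and 577 lower, and 49 had an adjusted p under 0.05, the lowest being 0.0499.

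Probes were named by RefSeq accession through a GRCh38.p14 gene table, and no coordinates of the array's own, older build are given. A gene with several probes was represented by its probe of highest mean log2 signal. Of the lists, LY6L, LY6S, LYNX1, AGR3, LOR and IFI27 were not matched. The members, lists and settings were chosen with earlier results of these data known. The rule for named genes took all probes of the 10 genes, C1GALT1, up to 3 genes per direction that passed in each list, and the 5 genes most like LY6D. Likeness was planned over 6 arrays and taken over 5, since LY6D was masked on 1. Genes named beyond this rule (SLURP1, SLURP2, GML, CYP11B1, CYP11B2, ARC, LY6G6C, LYPD5, LYPD8, PLAU, PLAT, PLG, CFI, CD55, PATE1, AGR2, KRT14, KRT6B, SPRR2A, IVL, IFI44, IFIT3, EPSTI1, PTPRC and CD79A) were chosen after their values were seen.

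By the scanner files, same-numbered arrays share a slide, and their deviations from the group means correlated at 0.198, 0.215 and 0.329, each highest with its own number, so the numbers were taken as pairs and the replicate block was run as an alternative. The fit was tested on simulated data, from which no result is reported here. Alternatives were the low-signal block kept, 75th percentile scaling, no normalization, outlier spots kept, normexp (offset 50) on the median signal, the series table floored at 10, the replicate block, a filter on dim probes, a trend and robust prior, an unmoderated Student's test, which the study's methods name for other experiments, other choices among probes of a gene, and each array left out in turn.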

Additional observations from a re-analysis of the deposited data

How the results depend on the processing

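The LY6D difference of 3.22 became 3.73 with the low-signal block of si-Control replicate 2 kept and 2.83 with normexp, and ranged from 2.95 to 3.47 without a single array. LYPD2 was 2.15 and PIGM 1.69 with normexp. PSCA kept its direction in every alternative, from 2.44 to 3.28 without a single array, and the leading LYPD1 probe ranged from -0.91 to -0.62. LYPD1 probe A_32_P101031 reversed to 0.90 with the block kept and ranged from -1.32 to -0.69 without a single array, and it was under 2-fold at -0.99 with the replicate block and with normexp and at -0.91 without normalization. LYPD1 probe A_23_P419696 was -0.91 with normexp. Without si-Control array 1 or 3, LY6D, LYPD2, SERPINB2, EPSTI1, IFI44 and LYPD1 probe A_32_P101031 rest on a single si-Control array, which was assumed to vary like the others. With the replicate block (paired by slide) LY6D was 3.34 ± 0.15 and PSCA 2.81 ± 0.35. The block narrowed the SE to 0.26 for LY6H, 0.22 for PLAUR and 0.12 for the leading LYPD1 probe, among others. It widened the SE to 0.32 and 0.26 for LYPD1 probes A_23_P419696 and A_32_P101031, and for LY6E the SE stayed at 0.20. Among the list genes that passed, the block ended the calls of SERPINB2 (-2.52), S100A7 (-1.57) and EPSTI1 (1.00) and changed no other, though PLAT gained one. The block was not run for APOD, PLEKHA1, IFI35 or PRF1. EPSTI1 was 3.67 with the low-signal block kept and did not pass. Probes that passed higher, 961, became 474 with the low-signal block kept, 497 with normexp and 560 with Student's test. Those lower, 577, became 295 without normalization and 336 with Student's test, and without a single array the counts were 653 to 1064 and 473 to 768. In the lists, the other LY6/uPAR genes had 1 to 2 calls without a single array, 2 without si-Control 1 (GML added) or si-C1GALT1-3 3 (PATE1 added). The urokinase list, with 1, had 0 with the low-signal block kept and with the series table, and 0 to 1 without a single array, 0 without si-Control 1 or si-C1GALT1-3 1. Its 1 call was PLAT and not SERPINB2 with the replicate block and without si-Control 3, and PLG without si-C1GALT1-3 2. The complement list, with 0, had 1 with the low-signal block kept, 2 with 75th percentile scaling, 3 counting any probe, and 0 to 2 without a single array, 1 without si-Control 1 and 2 without si-C1GALT1-3 3. The GPI anchor list, with 1, had 2 counting any probe. The squamous list, with 1, had 0 without normalization, with normexp, with the series table and with the replicate block, 2 counting any probe, and 0 to 2 without a single array, 0 without si-Control 1 or 2 or si-C1GALT1-3 1 and 2 without si-C1GALT1-3 2. Without a single array the LY6K, PLAUR and second LYPD6 differences took either sign, from -0.41 to 0.49, -0.72 to 0.23 and -0.14 to 1.56. The causes were not tested. Dim probes (LY6K, CD59, the second LYPD6 probe, PATE1, KRT6B and PLG) are limited by signal over background. PATE1 and KRT6B were well above background on no array kept, and PLG on 1 si-C1GALT1-3 array alone. The CD59 difference was 0.12 with the low-signal block kept and 0.10 with normexp.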
